A study of Mus musculus with 4 samples.

Results

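Neurexins and neuroligins are cell adhesion proteins that meet across the cleft of a synapse. Neurexins sit mainly in the presynaptic membrane and bind neuroligins, which sit in the membrane of the receiving cell, and both proteins carry a short tail inside the cell that recruits scaffold proteins of the release site or of the receptor site. The family is best known for setting the properties of neuronal synapses, and spiral ganglion neurons of the inner ear form such synapses with hair cells and with the brainstem. Here 5 of these genes were described, namely the neurexins Nrxn2 and Nrxn3 and the neuroligins Nlgn1, Nlgn2 and Nlgn3, taken by symbol from 49997 gene rows. All 5 passed the filter on low counts, which left 11525 genes. The 5 were chosen by name with the neuron against proliferating counts of these libraries already known, so values of that contrast are a description and no test is read from them.

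The RNA came from wild-type iMOP cells, a mouse otic progenitor line that has been immortalized, in 4 libraries. The 2 proliferating libraries were from cells in DMEM/F12 with N21 supplement, 20 ng/ml of bFGF, a growth factor that keeps progenitors dividing, and the antibiotic carbenicillin at 25 µg/ml. The 2 neuron libraries were from cells in Neurobasal with N21, K03861 at 1 µM, a compound that inhibits CDK2, and L-glutamine at 2 mM. Libraries in each group are numbered 1 and 2, and the labels name neither separate cultures nor the time in each medium, so p-values measure only the spread between these samples, which may be technical.

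The 4 libraries held between 3150354 and 32913243 counts, of which 7 ribosomal RNA or rRNA-like genes took 88.2% to 98.1%, leaving 292302 counts in proliferating 1, 614465 in proliferating 2, 3241915 in neuron 1 and 617872 in neuron 2. Levels are given as CPM, the counts of a gene per 1000000 of those remaining counts, and 3 counts, the limit that a count of 0 allows, correspond to 10.3, 4.88, 0.925 and 4.86 CPM in that order. Summed over each list, the dividing cell and neuron markers went against the labels. The summed level of 8 dividing cell markers was 315 and 781 CPM in the proliferating libraries and 2358 and 3565 CPM in the neuron libraries, while 14 neuron markers summed to 2686 and 2571 CPM against 1737 and 1199 CPM. Map2 had the most counts of the neuron list in every library. Of the 10 tested neuron markers 4 were lower in the neuron group with no overlap, beside 6.59% of all tested genes. Rbfox3 (4, 2, 176 and 3 counts in the order above) and Dcx (51, 143, 928 and 102) were higher in neuron 1 than in both proliferating libraries. In neuron 2 neither gene was above both of them, and Rbfox3 was at the limit of 3 counts. The log2 fold changes of Rbfox3 and Dcx, neuron over proliferating, were 1.92 (SE 1.46) and 0.17 (SE 0.96) in edgeR with group alone. Nefl and Nefm, which encode neurofilaments, and Gap43, of growing axons, were at 0 in proliferating 1 and neuron 2. Of 10 glia markers, 2 (Sox10 and Foxd3) were at 0 in every library and the list summed to 736, 382, 171 and 42.1 CPM, and 6 hair cell markers summed to 31.5 CPM or less. The 8 otic progenitor markers, which include Sox2 and Nes, summed to 1023 and 1245 CPM in the proliferating libraries and 935 and 511 CPM in the neuron libraries, with Pax8 and Isl1 at 0 in all 4. Whether each library carries the right label cannot be decided from these files, so every direction between neuron and proliferating libraries below is that of the libraries as labelled, and a swap of labels would turn it. The part of other cell types, of cell division and of depth in the values below was not tested, and in bulk RNA fewer cells of a type and less RNA per cell cannot be told apart.

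The members differed in base composition, which moved with library number across all genes, so the ends of their coding sequences are shown first. Each is the last 120 coding bases, stop codon included, of the transcript with the longest complete coding sequence in GENCODE M21 (mouse build mm10), read 5′ to 3′, with G and C in capitals. They encode the tail inside the cell that binds scaffold proteins.
Nrxn2: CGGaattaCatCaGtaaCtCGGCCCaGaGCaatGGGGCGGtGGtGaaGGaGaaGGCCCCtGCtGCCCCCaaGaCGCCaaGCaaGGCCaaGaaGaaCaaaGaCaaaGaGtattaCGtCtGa
Nrxn3: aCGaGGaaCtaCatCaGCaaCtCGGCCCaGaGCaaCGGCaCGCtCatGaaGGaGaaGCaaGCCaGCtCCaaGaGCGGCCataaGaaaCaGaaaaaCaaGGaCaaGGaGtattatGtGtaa
Nlgn1: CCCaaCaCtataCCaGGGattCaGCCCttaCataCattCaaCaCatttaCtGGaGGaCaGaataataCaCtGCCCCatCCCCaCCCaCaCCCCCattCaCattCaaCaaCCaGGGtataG
Nlgn2: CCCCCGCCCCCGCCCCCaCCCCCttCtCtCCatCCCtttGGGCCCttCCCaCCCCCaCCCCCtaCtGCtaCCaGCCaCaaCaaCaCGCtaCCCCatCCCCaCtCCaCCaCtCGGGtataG
Nlgn3: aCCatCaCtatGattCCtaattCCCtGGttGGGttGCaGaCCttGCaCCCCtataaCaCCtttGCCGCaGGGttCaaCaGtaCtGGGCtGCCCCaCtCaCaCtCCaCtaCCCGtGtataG
In these stretches 65 of 120 bases were G or C in Nrxn2 and 59 in Nrxn3, and among the neuroligins 81 in Nlgn2, 63 in Nlgn3 and 57 in Nlgn1. Over the whole coding sequence the GC content was 62.7% in Nlgn2, 62.6% in Nrxn2, 55.2% in Nlgn3, 52.5% in Nrxn3 and 45.9% in Nlgn1. At the third codon position, where most silent changes lie, it was 77.0% in Nrxn2, 73.7% in Nlgn2, 63.1% in Nlgn3, 63.0% in Nrxn3 and 43.5% in Nlgn1.

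Nrxn3 and Nlgn1 had higher levels in both neuron libraries than in both proliferating libraries, whereas Nrxn2, Nlgn2 and Nlgn3 were split by library number rather than by group. Nrxn3, a presynaptic neurexin (chromosome 12, 88722876 to 90334935, plus strand), had 7 counts in proliferating 1, 5 in proliferating 2, 464 in neuron 1 and 75 in neuron 2, which are 23.9, 8.14, 143 and 121 CPM. The groups did not overlap, and the neuron libraries were close to each other. With exact 95% Poisson intervals, which cover counting error alone, the proliferating levels lay between 9.63 and 49.3 and between 2.64 and 19.0 CPM, and both intervals included the level of 3 counts. The neuron intervals were 130 to 157 and 95.5 to 152 CPM.

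Nlgn1, a neuroligin found mainly at excitatory synapses (chromosome 3, 25426215 to 26332460, minus strand), had 4 counts in proliferating 1, 8 in proliferating 2, 183 in neuron 1 and 34 in neuron 2. Its levels were 13.7 and 13.02 CPM in the proliferating libraries and 56.4 and 55.03 CPM in the neuron libraries. The groups did not overlap. Exact Poisson intervals, for counting error alone, were 3.73 to 35.0 and 5.62 to 25.7 CPM in the proliferating libraries. That of proliferating 1 included the level of 3 counts, 10.3 CPM. The neuron intervals were 48.6 to 65.2 and 38.1 to 76.9 CPM. How close the proliferating levels lie to each other is not resolved by 4 and 8 counts. Among all tested genes 12.6% were higher in the neuron group with no overlap and 6.59% were lower. The choice of the members used this contrast, and nothing is read from 2 of 5 being among the first.

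**Figure D1:**
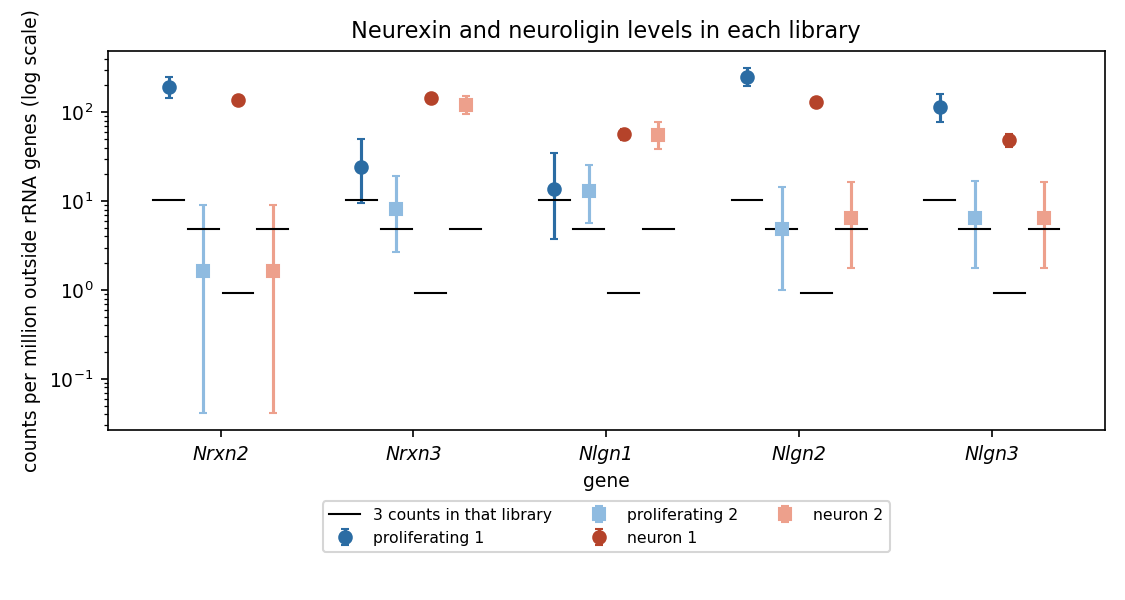
CPM outside the rRNA genes (log axis) of the 5 genes in each of the 4 libraries, with exact 95% Poisson intervals as bars and the level of 3 counts in that library as a black line. Nrxn3 and Nlgn1 are higher in both neuron libraries, and Nrxn2, Nlgn2 and Nlgn3 are near or below the line in both libraries numbered 2.

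Nrxn2, the other neurexin (chromosome 19, 6418731 to 6544169, plus strand), had 56 counts in proliferating 1, 1 in proliferating 2, 445 in neuron 1 and 1 in neuron 2. That is 192 and 137 CPM in the libraries numbered 1 against 1.63 and 1.62 CPM in those numbered 2, where a single count lies under the floor of 4.88 and 4.86 CPM. Nlgn2, the neuroligin of inhibitory synapses (chromosome 11, 69823122 to 69837784, minus strand), had 73, 3, 424 and 4 counts in the same order of libraries. Its levels were 250 and 131 CPM in the libraries numbered 1 and 4.88 and 6.47 CPM in those numbered 2. Nlgn3, a neuroligin found at both kinds of synapse (chromosome X, 101299168 to 101325963, plus strand), had 33, 4, 156 and 4 counts, which are 113, 6.51, 48.1 and 6.47 CPM. For these 3 genes the libraries of a number did not overlap with those of the other number, while the groups overlapped. Among all tested genes 38.1% were lower in both libraries numbered 2 than in both numbered 1.

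In the edgeR quasi-likelihood fit with group alone, Nrxn3 had a log2 fold change from proliferating to neuron libraries of 3.23 (SE 1.12) and Nlgn1 one of 2.14 (SE 1.16), with 2 libraries per group. The value was -0.37 for Nrxn2 (SE 1.61), -0.77 for Nlgn2 (SE 1.45) and -0.97 for Nlgn3 (SE 1.34), each smaller than its error. The median of all tested genes was 0.09. None of the 5 was called at an adjusted p under 0.05, and the share of all genes called was 0% higher and 0% lower. At an unadjusted p under 0.05 there were 129 genes in edgeR and 191 in DESeq2, which also called 0. The values of Nrxn2, Nlgn2 and Nlgn3 rested on single libraries: without proliferating 1 they were 5.12, 3.57 and 1.88, and without neuron 1 they were -5.24, -3.79 and -2.70. Without neuron 2 the value of Nrxn2 was 0.42. Nrxn3 stayed between 2.64 and 3.94 and Nlgn1 between 1.77 and 2.30 when each library was left out in turn, with no call in any of these fits.

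Within each library number the comparison is of 1 library with 1 library, on sizes scaled with TMM (the trimmed mean of M values), and the intervals cover counting error alone. For Nrxn3 the ratio of neuron 1 to proliferating 1 was 6.23 (exact 95% interval 2.9996 to 15.6), and that of neuron 2 to proliferating 2 was 16.3 (6.69 to 51.7). For Nlgn1 the ratios were 4.30 (1.65 to 15.9) and 4.62 (2.10 to 11.6). Both genes had the higher level in the neuron library of each number, which the choice of members had already seen, and the 2 ratios of each gene had overlapping intervals.

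The other 3 genes did not share this direction. Neuron 1 over proliferating 1 gave 0.747 for Nrxn2 (0.565 to 1.00), 0.546 for Nlgn2 (0.425 to 0.710) and 0.444 for Nlgn3 (0.304 to 0.668). In the libraries numbered 2 Nlgn2 had a ratio of 1.45 (0.245 to 9.90) from 4 and 3 counts and Nlgn3 one of 1.09 (0.203 to 5.84) from 4 counts each, so a difference was not detectable at this depth. No ratio is given there for Nrxn2, which had 1 count in each library.

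**Figure D2:**
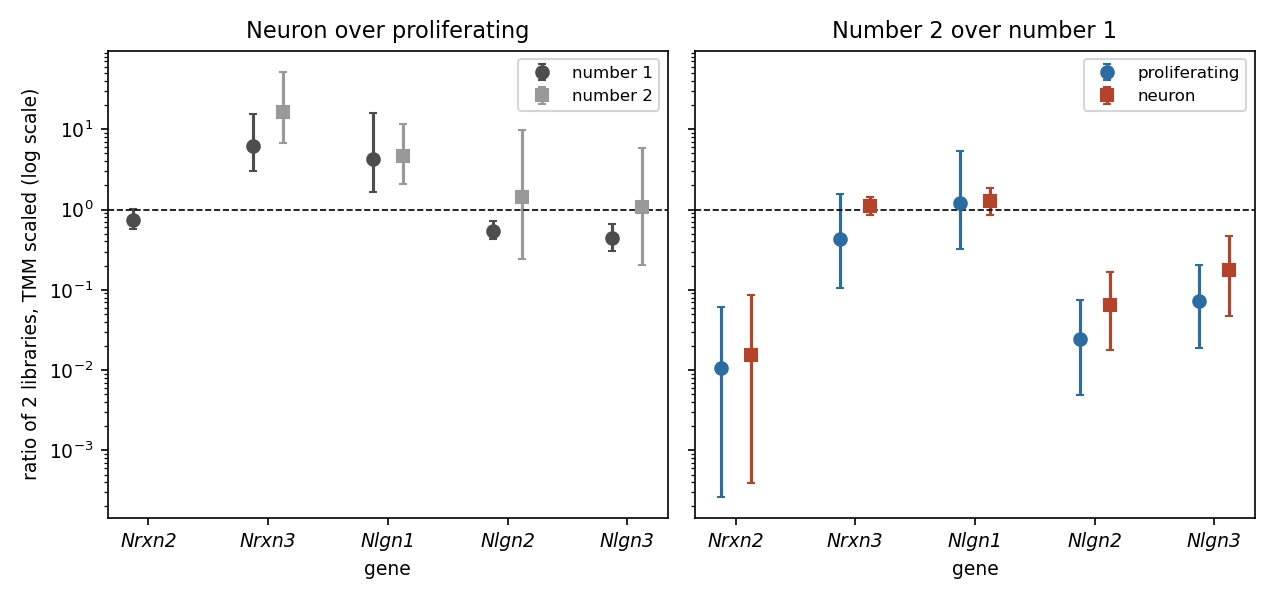
Ratios of 2 libraries on TMM scaled sizes (log axis) for each gene, with exact 95% counting intervals as bars and a dashed line at 1. The left panel shows neuron over proliferating within each number, without Nrxn2 in number 2 (1 count in each library), and the right panel shows number 2 over number 1 within each group, where Nrxn2, Nlgn2 and Nlgn3 lie below 1.

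With a term for library number added to the model, the value for Nrxn3 was 3.30 (SE 0.76), with 2.15 for Nlgn1 (SE 0.83), -0.35 for Nrxn2 (SE 0.83), -0.49 for Nlgn2 (SE 0.75) and -0.76 for Nlgn3 (SE 0.83). In this edgeR fit 0.364% of all genes were called higher and 0.13% lower, and Nrxn3 was the 1 gene of the 5 among them; since the choice used this contrast, nothing is read from that. After a correction for GC content in the same model, 0.268% of genes were called higher and 0.213% lower. Nrxn3 was then at 3.14 (SE 0.71) and among the genes called, from which likewise nothing is read, and Nlgn1 was at 1.22 (SE 0.74). With library totals in place of TMM the 5 values were higher, and the median of all genes moved from 0.07 to 1.07.

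The mix of family members within a library does not depend on any scaling between libraries, but a GC effect that differs between libraries would remain in it. The GC content of the longest transcript was 62.4% for Nrxn2 and 47.5% for Nrxn3. Among the neuroligins it was 60.7% for Nlgn2, 49.3% for Nlgn3 and 38.9% for Nlgn1. The part of GC content in these shares was not tested. Of the summed counts of Nrxn2 and Nrxn3, Nrxn3 made up 11.1% of 63 in proliferating 1 (95% Wilson interval 5.49 to 21.2) and 51.0% of 909 in neuron 1 (47.8 to 54.3). In the libraries numbered 2 it made up 83.3% of 6 counts (43.6 to 97.0) and 98.7% of 76 (92.9 to 99.8). Of the summed neuroligin counts Nlgn1 made up 3.64% of 110 in proliferating 1 (1.42 to 8.98) and 24.0% of 763 in neuron 1 (21.1 to 27.1), and 53.3% of 15 in proliferating 2 (30.1 to 75.2) and 81.0% of 42 in neuron 2 (66.7 to 90.0). As a description of the same counts, the share of Nrxn3 and that of Nlgn1 were larger in the neuron library of each number. Both shares were also larger in the libraries numbered 2 than in those numbered 1 of the same group.

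The difference by library number was not the contrast used to choose the members, but the counts of these libraries were already known. It was examined because same-numbered libraries had resembled each other more than libraries of the same group in an earlier reading of these data. The test had group as a covariate, and its p-values are not those of an independent test. Nrxn2, Nlgn2 and Nlgn3 passed the low count filter only through the libraries numbered 1, where they are high. For these genes the filter was therefore not independent of this contrast. With no low count filter all 3 were still called lower in number 2 (edgeR adjusted p = 2.79e-07, 6.51e-06 and 0.00938). In edgeR's quasi-likelihood test over all 11525 genes, 15.9% of genes were lower and 7.44% higher in the libraries numbered 2, and 3 of the 5 members were among the lower ones. The log2 fold change, number 2 over number 1, was -6.22 for Nrxn2 (SE 0.98; edgeR adjusted p = 1.10e-07), -4.605 for Nlgn2 (SE 0.82; adjusted p = 2.26e-06) and -3.13 for Nlgn3 (SE 0.87; adjusted p = 0.00392), and each was lower in both groups. The edgeR values of Nrxn3, -0.31 (SE 0.72, adjusted p = 0.787), and of Nlgn1, 0.32 (SE 0.80, adjusted p = 0.796), were smaller than their errors. Among neuroligins alone, Nlgn2 and Nlgn3 thus changed with the number and Nlgn1 did not pass the test. The difference between genes was not tested.

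Set beside each other, proliferating 2 over proliferating 1 was 0.0107 for Nrxn2 (0.000266 to 0.0620), 0.0246 for Nlgn2 (0.00495 to 0.0747) and 0.0725 for Nlgn3 (0.0186 to 0.204). Neuron 2 over neuron 1 was 0.0155 (0.000393 to 0.0871), 0.0653 (0.0177 to 0.168) and 0.177 (0.0477 to 0.463) for the same genes. All 6 intervals lay below 1. They rest on 1, 3 or 4 counts in the libraries numbered 2, and the intervals of the 3 genes overlap within the neuron group and within the proliferating group, so their order is not resolved. For Nlgn1 the ratios were 1.20 (0.320 to 5.43) and 1.29 (0.864 to 1.86), and for Nrxn3 they were 0.427 (0.107 to 1.56) and 1.12 (0.864 to 1.43), with 1 inside every interval.

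GC content moved with this contrast across all genes. Genes were put in 10 bins of equal number by the GC content of their longest transcript. The median log2 fold change, number 2 over number 1, was 1.54 in bin 1, with the lowest GC content, and -3.26 in bin 10, with the highest. Nrxn2 (62.4% GC) and Nlgn2 (60.7%) were in bin 10, in which 61.6% of genes were called lower, and both lay below its median. Nlgn1 (38.9%) was in bin 1 and Nrxn3 (47.5%) in bin 5, where the medians were 1.54 and 0.18. Nlgn3 (49.3%) was in bin 6, with a median of -0.38 and 7.39% of genes called lower, and its own value of -3.13 was below that median. For every member, not Nlgn3 alone, the GC content of the coding sequence, given above, is higher than that of the longest transcript.

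After a GC correction, chosen for this contrast after its values were seen, the number contrast called 1.86% of genes lower and 2.56% higher. Nrxn2 was then at -3.39 (SE 1.00, adjusted p = 0.0226 in edgeR) and Nlgn3 at -3.004 (SE 0.79, adjusted p = 0.00767 in edgeR), and both kept their calls. Nlgn2 was at -1.87 (SE 0.78, adjusted p = 0.164 in edgeR) and lost its call. Nlgn3 also lost its call without proliferating 1, at -2.54 (adjusted p = 0.170 in edgeR with number alone in the model), and without neuron 2 Nrxn3 was called lower in that model, at -2.997 (adjusted p = 0.0158 in edgeR).

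**Figure D3:**
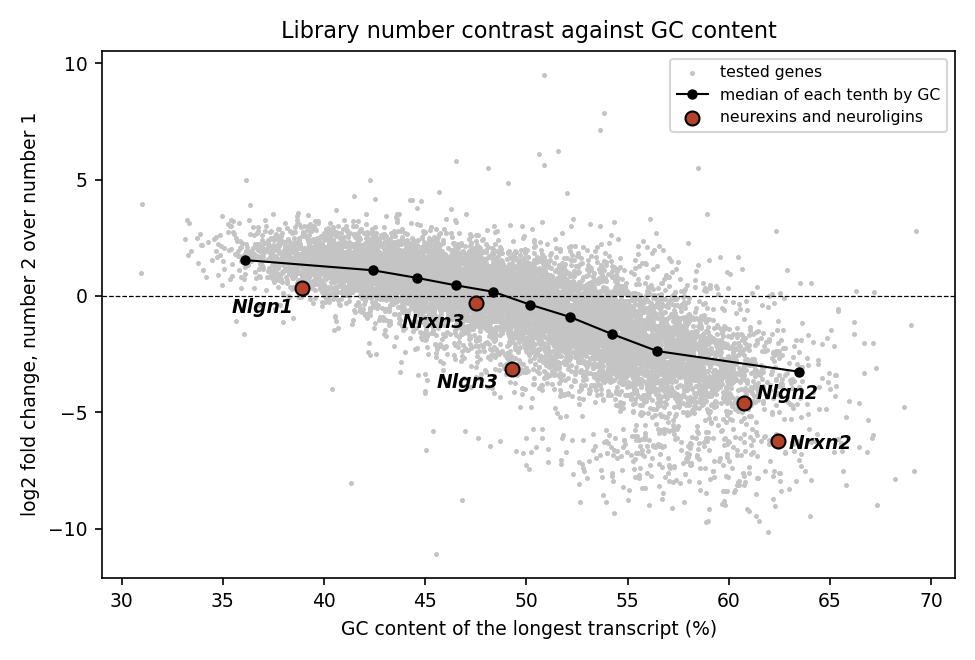
Log2 fold change of number 2 over number 1 from edgeR against the GC content of the longest transcript, with tested genes in grey, the median of each of the 10 GC bins as a black line and the 5 members in red. The line falls from 1.54 to -3.26, and all 5 members lie below it.

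Levels of different genes were compared per kilobase, and the length matters here. The length behind each deposited RPKM value, recovered from the counts, was 112.3 kb for Nrxn3, while the union of its exons in GENCODE M21 is 12.6 kb, a ratio of 8.91. Of 10822 genes with both lengths only 63 had a larger ratio, the median was 0.903, and Nrxn3 had the 7th greatest deposited length of the tested genes. The deposited lengths were 13.3 kb for Nrxn2, 5.74 kb for Nlgn2, 18.5 kb for Nlgn1 and 3.88 kb for Nlgn3, against 13.8, 5.79, 13.4 and 9.27 kb of GENCODE exons. Which part of the Nrxn3 locus, whose whole span is 1612 kb, the longer deposited length covers is not given in the sources used here. Neither gene-level counts nor lengths separate the long alpha and short beta forms that neurexin genes produce from different promoters.

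**Figure D4:**
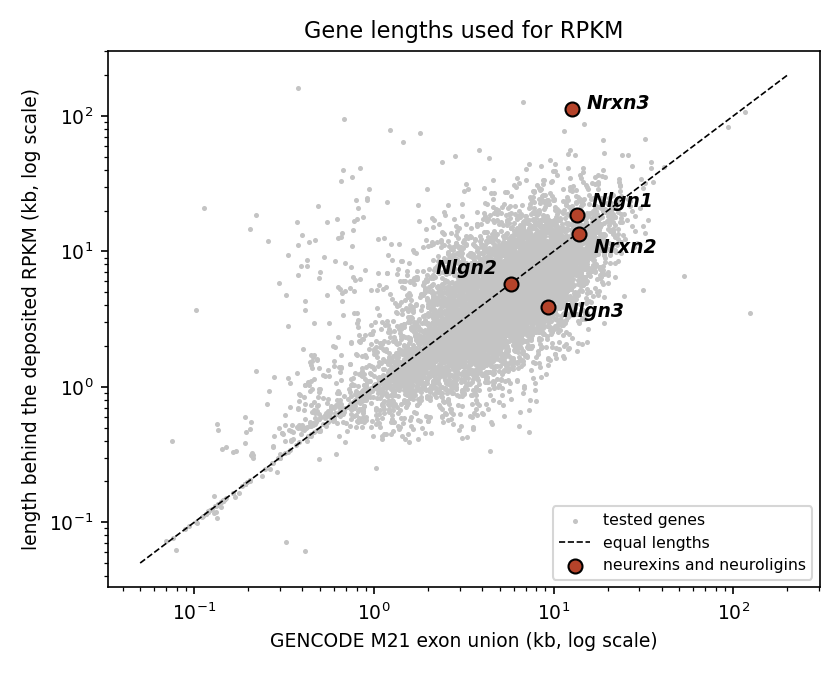
Gene length behind the deposited RPKM values against the union of exons in GENCODE M21 (both in kb on log axes), with tested genes in grey, equal lengths as a dashed line and the 5 members in red. Nrxn3 lies far above the line at 112.3 kb against 12.6 kb, Nlgn3 lies below it, and Nrxn2 and Nlgn2 lie on it.

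Per kilobase of the deposited length, Nlgn2 had the highest level of the 5 in neuron 1, at 22.8 CPM per kb (exact 95% Poisson interval 20.7 to 25.1), then Nlgn3 at 12.4 (10.5 to 14.5), Nrxn2 at 10.3 (9.37 to 11.3), Nlgn1 at 3.06 (2.63 to 3.54) and Nrxn3 at 1.27 (1.16 to 1.40). Only the neighbours Nlgn3 and Nrxn2 had overlapping intervals. Proliferating 1 gave the same order, at 43.5, 29.1, 14.4, 0.741 and 0.213 CPM per kb. In neuron 2 the order was Nlgn1 at 2.98 (2.06 to 4.17), Nlgn3 at 1.67 (0.454 to 4.27), Nlgn2 at 1.13 (0.307 to 2.89), Nrxn3 at 1.08 (0.850 to 1.36) and Nrxn2 at 0.121 (0.00307 to 0.677), and apart from the last pair the neighbours overlapped. In proliferating 2 the 5 genes had 21 counts in all, and their levels ran from 0.0725 for Nrxn3 to 1.68 for Nlgn3.

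Per kilobase of GENCODE exons the place of Nrxn3 changed. In neuron 1 the order became Nlgn2 at 22.6 CPM per kb, Nrxn3 at 11.4 (10.3 to 12.4), Nrxn2 at 9.94 (9.04 to 10.9), Nlgn3 at 5.19 (4.41 to 6.07) and Nlgn1 at 4.21 (3.62 to 4.86), with overlap between the neurexins and between the last 2 neuroligins. In neuron 2 Nrxn3 was highest, at 9.63 (7.57 to 12.1), above Nlgn1 at 4.10 (2.84 to 5.73). In both neuron libraries Nrxn3 was thus last or next to last on one length and among the first 2 on the other, and its place among the members depends on the length used.

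The genes that work with neurexins and neuroligins were taken from 6 lists by role, 79 genes in all, of which 49 passed the count filter. In the fit with group alone and in that with a term for library number, 0 of the 49 were called higher or lower between neuron and proliferating libraries, beside 0% of all genes in the first fit and 0.364% higher and 0.13% lower in the second. Their median log2 fold change with group alone was 0.08, beside 0.09 over all genes. By library number 14 of the 49 (28.6%) were lower in number 2 and 1 was higher, beside 15.9% and 7.44% of all genes, and the median was -0.69 beside -0.10.

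Of 19 listed extracellular ligands of neurexins, which include the LRRTM proteins, cerebellins, neurexophilins and latrophilins, 6 were tested, among them all 3 listed latrophilins, and 5 had no count in any library. Dag1, which encodes dystroglycan, had 110, 155, 863 and 54 counts in proliferating 1 and 2 and neuron 1 and 2 and a log2 fold change, neuron over proliferating, of -0.80 (SE 0.98). The latrophilin Adgrl2 had 33, 121, 372 and 71 counts and a value of -0.38 (SE 0.97). Both were present in every library and neither differed by more than its error.

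Among the listed intracellular partners of neurexins, 8 of 11 genes were tested. Lin7c, whose product is in a scaffold with CASK, was at 0.78 between groups on the log2 scale (SE 1.07). Epb41, which links membrane proteins to actin, was at -0.64 (SE 0.98). Lin7c was also the 1 partner gene that rose in number 2, with a log2 fold change of 1.68 (SE 0.61; edgeR adjusted p = 0.0302), and its transcript has a GC content of 37.3%. Of 17 genes whose proteins gather at neuroligin tails 12 were tested, with 0.65 (SE 1.02) for Dlg1 and 0.77 (SE 0.98) for Magi1, both membrane scaffold proteins. In this list 4 genes were lower in number 2 and 0 higher.

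Mdga1, whose product binds neuroligins and blocks neurexin, had 144, 18, 655 and 3 counts in proliferating 1 and 2 and neuron 1 and 2. Between groups it was at -1.26 on the log2 scale (SE 1.41), and by number it was at -4.203 (SE 0.73; edgeR adjusted p = 1.28e-06), the 1 call in either direction among the 5 tested inhibitors and shedding proteases. The protease gene Adam10, whose product sheds neuroligins and many other surface proteins, had a value of 0.35 (SE 1.02) between groups. The RNA-binding proteins Khdrbs1 and Khdrbs3, which regulate alternative splicing of neurexin transcripts, had values of -0.49 (SE 1.00) and 0.27 (SE 1.06), and Khdrbs2 was at 0 in every library. Of 23 other synapse-organizing adhesion genes 16 were tested, and 7 were lower in number 2. Ptprs and Ptprf, receptor phosphatases of the presynaptic membrane, had the most counts among them, with log2 fold changes between groups of -1.13 (SE 1.36) and -0.70 (SE 1.15), and fell by 3.45 (adjusted p = 1.13e-05 in edgeR) and 2.46 (adjusted p = 0.00171 in edgeR) in number 2.

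**Figure D5:**
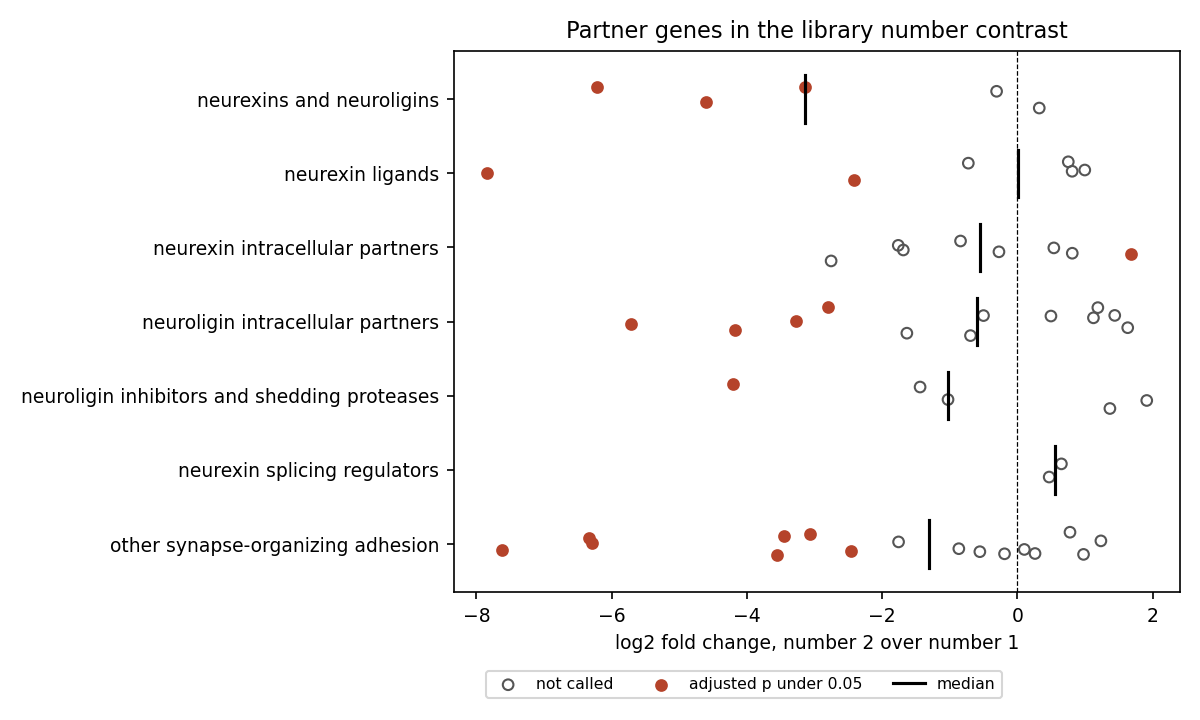
Log2 fold change of number 2 over number 1 from edgeR for the 5 members (top row) and for the tested genes of 6 partner lists, with filled points for genes at an adjusted p under 0.05 and a black bar at each median. Filled points lie left of 0, apart from Lin7c among the neurexin intracellular partners.

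The partner genes that were lower in number 2 had a median GC content of 60.5% (46.8% to 65.6%), and the other tested partners one of 46.5% (36.9% to 60.8%), so the ranges overlapped. With a cut at 55% GC, set after the values were seen, 13 of 19 partners at or above it and 1 of 30 below it were lower in number 2. Over all tested genes with a known GC content the shares were 52.8% of 2274 and 6.33% of 8548, so the same gradient ran through all genes and is not a result about the partners.

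The genes with the most similar profiles over the 4 libraries were found by the smallest distance between centred log2 CPM profiles, among genes of like mean level. For Nrxn3 these were Mob3b (6, 4, 276 and 45 counts in proliferating 1 and 2 and neuron 1 and 2; distance 0.497) and Clu (13, 7, 765 and 70; 0.725). For Nlgn1 they were Ccser1 (3, 6, 139 and 24; 0.104) and Mms22l (4, 9, 211 and 36; 0.151). Agpat1 (31, 0, 247 and 0; 0.275) and Gnb2 (82, 2, 665 and 1; 0.501) were nearest to Nrxn2, Mfge8 (0.173) and Slc4a2 (0.252) to Nlgn2, and Erbb2 (0.162) and Ubl7 (0.169) to Nlgn3. Among the members themselves Nrxn2 was closer to Nlgn2 (1.14) than to Nrxn3 (5.97), and Nrxn3 was closer to Nlgn1 (1.49) than to the other 3 members (4.42 to 5.97). These are profiles over 4 libraries, and the points share library depth and base composition.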

How the data were processed

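RNA was measured in 4 libraries of iMOP cells, with ribosomal RNA depleted and a stranded kit used per the labels' protocols. The authors deposited raw counts per gene and RPKM values (counts scaled by gene length and by library total), one file of each per library. The submitters' processing notes name HISAT2, SAMtools, featureCounts, DESeq2 and the build mm10; the strand setting, annotation and versions are not given in the sources used here, and counts of a gene may hold reads of one that overlaps it. Dividing counts by the deposited RPKM and the library total gave 1 length per gene, within a relative tolerance of 0.001, for 6830 of 6830 genes with 20 counts in 2 or more libraries.

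Tests on the counts used edgeR 4.0.16 under R 4.3.3 (quasi-likelihood test, TMM scaling, filterByExpr on totals that include rRNA counts, Benjamini-Hochberg adjustment over all tested genes, threshold 0.05). A standard error is the log2 fold change divided by the root of its F statistic. A prior count of 2 was added for log2 CPM. Alternatives used DESeq2 1.42.0, limma 3.58.1 on log2(RPKM + 0.1) and log2(RPKM + 1), other scalings and filters, each library left out, the replicate number as a block, and a GC correction, a spline with 5 degrees of freedom per library on the GC content of the longest GENCODE M21 transcript, known for 93.9% of tested genes. Poisson, binomial and ratio intervals are at 95% and cover counting error only, since reads are not independent molecules.

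The members, the partner and marker lists and the tests were chosen with earlier results of these data known. The text names all 5 members, in each partner list the genes called with group alone or with the block at a mean log2 CPM of at least 1 (none were), otherwise the 2 with the highest mean, and the 2 genes nearest in profile to each member; predicted genes, clones and small RNAs were left out. Neurexin genes other than Nrxn2 and Nrxn3 are not reported here.

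The edgeR fits were tested on simulated data with known changes. The fit with group alone missed most of them at every size simulated, so its lack of calls says little, while the fits with a term for library number recovered most of the larger changes and missed most of the smallest.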

Additional observations from a re-analysis of the deposited data

How the results depend on the processing

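Between groups, 0 genes were called higher and 0 lower with group alone under every scaling, filter, tool and omission run (55 to 434 genes at an unadjusted p under 0.05 when a library was left out), and these counts cannot show stability. With the replicate block, which leaves 1 residual degree of freedom in place of 2, 42 genes were called higher and 15 lower. The labels do not say that equal numbers mark shared cultures, and same-numbered libraries deviated from their group means together (correlation 0.69 over 11525 genes). Together with the block, and mostly chosen after the data were examined, other choices called 29 higher and 23 lower (GC correction, planned), 38 and 19 (DESeq2 size factors), 3 and 0 (library totals), 56 and 29 (rRNA genes set aside), 34 and 9 (no filter), 58 and 21 (10 counts in 2 libraries), 40 and 29 (DESeq2), 774 and 8 (limma on log2(RPKM + 0.1)) and 922 and 11 (limma on log2(RPKM + 1)). Nrxn3 was called in 7 of the 10 fits with the block, at log2 values of 0.14 to 4.35 (adjusted p = 0.00318 to 0.222 in edgeR, DESeq2 or limma), and Nlgn1 in 1, at 1.48 with limma on log2(RPKM + 0.1) (adjusted p = 0.0453). The choice of the members used this contrast, so these calls describe how the fits vary and nothing is read from their number. The direction turned for Nlgn2 with limma on log2(RPKM + 0.1), at 0.0475 with and without the block, and for Nrxn2, Nlgn2 and Nlgn3 with the block and library totals, at 0.23, 0.41 and 0.14; library totals moved the median of all genes from 0.09 to 0.86 with group alone and from -0.10 to -1.90 by number. Leaving out libraries gave -5.24 to 5.12 for Nrxn2, -3.79 to 3.57 for Nlgn2 and -2.70 to 1.88 for Nlgn3.

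By library number, genes called higher went from 858 to 17 with library totals, 56 and 62 with limma at the smaller and the larger pseudocount, 277 after the GC correction (added after the values were seen), 484 with number alone and 38, 122 and 1407 without proliferating 1, neuron 1 and proliferating 2. Genes called lower went from 1827 to 3876, 5639, 5676 and 201 with the first 4 of these, 1074 with DESeq2 and 627 and 729 without proliferating 1 and neuron 1 (at most 2028). RPKM and library totals keep the unequal rRNA share of the libraries in the scale; the cause of the other moves was not tested. Nlgn1 turned to -1.35 (library totals), -0.55 and -0.12 (limma) and -1.17 (GC correction). With a library left out Nlgn1 ran from -1.13 (without neuron 2) and -0.36 (without proliferating 1) to 1.72, and Nrxn3 from -2.997 (without neuron 2) to 0.98 (without proliferating 2) and 1.87 (without neuron 1). Those fits had number alone, and a lone library was assumed to vary like the others; with group kept no residual degree of freedom remains. Nrxn2 was called lower in all 14 alternatives, and Nlgn2 and Nlgn3 in 13 each. Other scalings moved no ratio within a number beyond its counting interval.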

Other observations

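Several genes overlap the members in RefSeq (build GRCm38.p6), and strand use in the counting was not stated. Within Nlgn1 lies the pseudogene Gm6197 (chromosome 3, 25731226 to 25732613), which had 2 and 12 counts in proliferating 1 and 2 and 119 and 16 in neuron 1 and 2. The lncRNA A830092H15Rik at the start of Nlgn1 had 0, 3, 15 and 2 counts in the same order. Gm40537, a lncRNA within Nrxn3, had 4 counts in neuron 1 and 0 elsewhere, and the 2 lncRNAs that overlap Nrxn2, Gm14965 and Gm52381, had at most 6 counts in a library. Neither Nlgn2 nor Nlgn3 had an overlapping gene there.

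Mdga2, the paralog of Mdga1, named after its values were seen, had 3, 16, 104 and 62 counts in that order of libraries, with a log2 fold change of 1.94 (SE 1.21) with group alone. Gphn, which encodes the gephyrin scaffold of inhibitory synapses that binds Nlgn2, also named after its values were seen, had 9, 43, 220 and 105, with a value of 1.33 (SE 1.08). Neither was called in edgeR, with or without the replicate block.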
